A study of Arabidopsis thaliana with 12 samples.

Results

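The response that 3 inhibitors of the TOR kinase have in common was measured as the mean of the AZD8055, KU63794 and TORIN1 groups against mock, with 9 inhibitor libraries set against 3 mock libraries. All 12 libraries of the series enter, and every gene could be a member: 17933 of the 33602 genes in the count files had enough counts to be tested. Arabidopsis thaliana seedlings of the ecotype Col-0, with no transgene or mutation named, were grown upright on plates in continuous light until 4 days after germination. For 8 h they were then kept with the solvent DMSO (mock) or with an inhibitor, at 2 µM for AZD8055, 10 µM for TORIN1 and 20 µM for KU63794. Polyadenylated RNA was sequenced from about 30 mg of shoot tissue per sample. The treatment protocol spells the name of the KU compound with its last 2 digits in the other order. The exposure was equally long for all compounds, but the doses were not the same. Nothing in the labels tells whether replicates were grown separately, and the p-values below therefore cover the spread among these libraries, which may be technical.

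TOR is a protein kinase that all eukaryotes share and that promotes growth when nutrients, sugar and energy are available. In plants it acts in a complex with RAPTOR and LST8, it promotes ribosome production, translation and cell division in growing tissue, and it holds back autophagy. The 3 compounds compete with ATP at the active site of the kinase.

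Libraries held 7706957 to 14696645 counts, which puts the level that a count of 0 allows (3 counts) at 0.204 to 0.389 CPM for counting error only. CPM are counts divided by the library total and scaled so that a library sums to 1000000, and all levels below are on this scale after TMM scaling, except the marker sums, which use library totals. Transcripts of 22 seed storage and oil-body genes, which remain in young seedlings after germination, summed to 63.8, 73.2 and 122 CPM in mock, but to 1.14 CPM in replicate 3 of AZD8055, 3.1 CPM in replicate 1 of KU63794 and 2.47 and 3.2 CPM in replicates 2 and 3 of TORIN1, against 70.9 to 291 CPM in the other 5 inhibitor libraries. In those 4 libraries 15 to 17 of the 22 genes were at 0 counts, against 0 to 4 in the other 8. None of the 16 tested members was called. The part of these 4 libraries in the results below was not tested beyond leaving them out, which is given beside the counts. Summed over 26 shoot markers, levels were 48340 to 66880 CPM. Of 37 root markers 14 stayed under 1 CPM in every library, yet others were present, and their summed level was 7112 to 8351 CPM in mock, 5175 to 5511 CPM with AZD8055, 4789 to 5523 CPM with KU63794 and 5290 to 7075 CPM with TORIN1. Of the 19 root markers tested, 7 were lower and 0 higher. Without the 3 beta-glucosidases BGLU21, BGLU22 and PYK10 the sum was 152.3 to 187.5 CPM in mock and 127.2 to 179.1 CPM with AZD8055. It was 156.5 to 170.1 CPM with KU63794 and 111.7 to 158.3 CPM with TORIN1. The lowest sums were in replicates 2 and 3 of TORIN1 and replicate 3 of AZD8055, which also had few seed storage transcripts. Replicate 1 of KU63794, which had few as well, was at 170.1 CPM. The part of root tissue in the results was not tested. In bulk tissue, fewer cells of a type and less RNA per cell cannot be told apart.

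Against mock, 2725 genes were higher (15.2% of those tested) and 3158 were lower (17.6%) in the mean of the 3 inhibitors, at an edgeR adjusted p below 0.05, which is what "called" means below. The changes were mostly moderate. The median log2 fold change was 0.513 for the higher and −0.602 for the lower genes, and 60.1% and 47.7% of them were under 1.5-fold. At least 2-fold changes were found for 391 higher genes (2.18% of those tested) and 617 lower genes (3.44%). Library by library, all 9 inhibitor libraries lay above all 3 mock libraries for 1973 genes (11.0% of those tested) and below them for 2334 (13.0%). Over all genes tested, the median log2 fold change was −0.0035. The shares of 15.2% higher and 17.6% lower are the background for all counts of gene lists below. Without the 4 libraries with few seed storage transcripts, a setting chosen after seeing the data, 1936 genes were higher and 2542 lower. Without the mock library of replicate 2 the counts were 1829 and 2299, the lowest when a single library was left out.

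**Figure D1:**
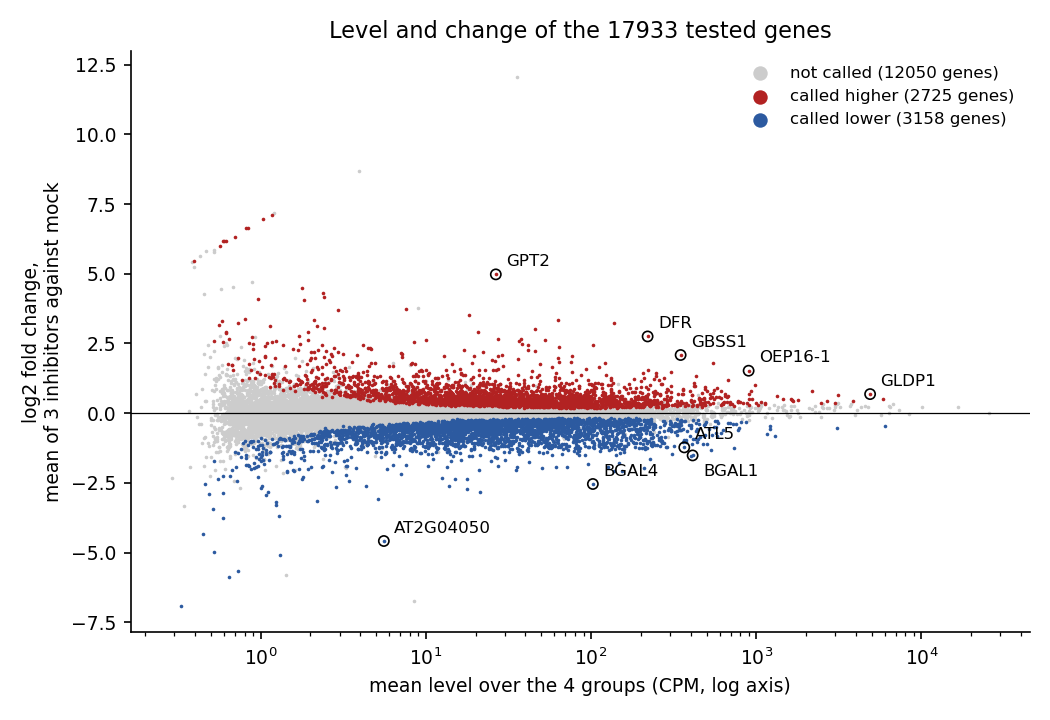
Each point is a tested gene, placed by its mean level over the 4 groups (CPM, log axis) and by the log2 fold change of the mean of 3 inhibitors against mock. Red points are the 2725 higher genes, blue points the 3158 lower genes and grey points genes not called. Circles mark some of the named genes, of which GPT2 lies highest and AT2G04050 lowest.

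The mean of the inhibitors called genes that single inhibitors did not. Taken alone against the same 3 mock libraries, AZD8055 called 5461 genes (30.5%), KU63794 4555 (25.4%) and TORIN1 3613 (20.1%), in either direction. Of the 2725 higher genes, 1111 were called higher with each of the 3 inhibitors, 887 with 2 of them, 603 with 1 and 124 with none. Of the 3158 lower genes the same counts were 1314, 1107, 619 and 118. Thus 1614 higher and 1844 lower genes of the mean were not called with every inhibitor. The median standard error (SE) of a log2 fold change was 0.1364 for the mean and 0.1663 to 0.1676 for a single inhibitor, and all 4 comparisons use the same mock libraries. No gene called in the mean was called in the opposite direction with any inhibitor, and 3 higher and 17 lower genes had a single-inhibitor change of the opposite sign. In turn, 1103 genes called with at least 1 inhibitor were not called in the mean.

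**Figure D2:**
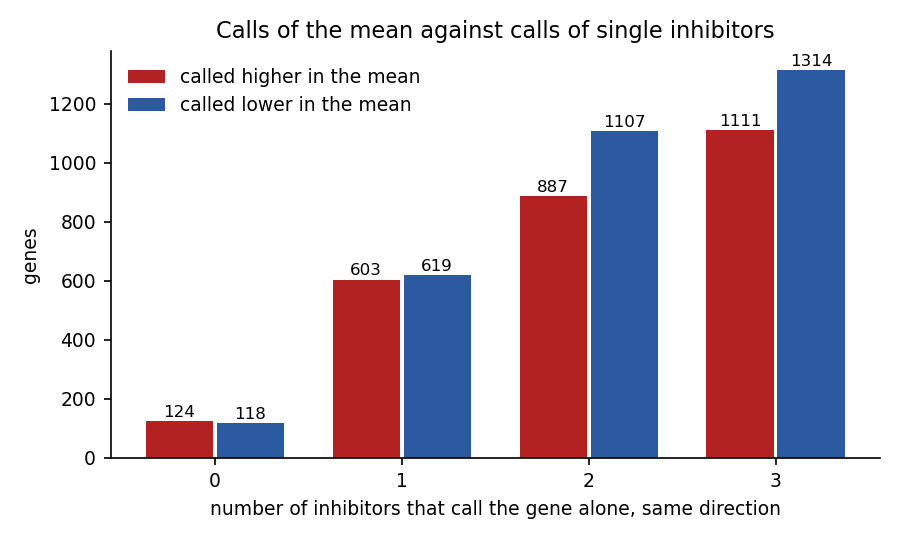
Bars count the genes called in the mean of 3 inhibitors against mock by the number of inhibitors, 0 to 3, that call the gene alone in the same direction. The highest bars, 1111 higher and 1314 lower genes, are those called with all 3, and the 124 and 118 genes at 0 were called in the mean but with none alone.

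Genes that build and run the translation machinery fell. Of 175 tested genes annotated as cytosolic ribosomal proteins, 166 were lower and 0 higher, and their median log2 fold change was −1.072. The list follows the annotation's words and includes a few proteins of organelle ribosomes, such as MRPL11. Plant ribosomal proteins are encoded by families of near-identical copies, so values of single members are uncertain where the authors' counting could split reads between copies. The same holds for GLDP1 and GLDP2 and for the antenna and Rubisco genes below. In 154 of the 175 genes all 9 inhibitor libraries lay below all mock libraries. Where requiring a call with every inhibitor would keep 137, the mean added 29.

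As examples, 120 bases upstream of the annotated gene start are given for 3 ribosomal protein genes, ATKRS-1 (AT3G11710) and NSN1 (AT3G07050). ATKRS-1 is the lysyl-tRNA synthetase, and NSN1 is a nucleolar GTP-binding protein needed for ribosome assembly. These windows were picked to be shown and do not tell how common the motifs are. Shares over all genes and by list are given further below. ATL5 (AT3G25520) encodes ribosomal protein L5, and AT3G22230 and AT2G40205 encode proteins of the L27e and L41 families and were called in the mean but with no inhibitor alone. Capitals mark the telo-box (AAACCCTA or its reverse complement TAGGGTTT) and site II elements (TGGGCC or TGGGCT, or the reverse complements GGCCCA and AGCCCA), motifs known from promoters of plant ribosomal protein genes. Sequences are from RefSeq, build TAIR10.1, written 5′ to 3′ on the gene's strand.
ATL5 chr3:9271466-9271585 (minus strand): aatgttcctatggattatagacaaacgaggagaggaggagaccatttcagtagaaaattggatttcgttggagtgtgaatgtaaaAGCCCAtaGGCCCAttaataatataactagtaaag
AT3G22230 chr3:7844598-7844717 (minus strand): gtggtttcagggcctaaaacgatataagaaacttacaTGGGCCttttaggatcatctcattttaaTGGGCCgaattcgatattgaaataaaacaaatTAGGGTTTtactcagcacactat
AT2G40205 chr2:16792623-16792742 (minus strand): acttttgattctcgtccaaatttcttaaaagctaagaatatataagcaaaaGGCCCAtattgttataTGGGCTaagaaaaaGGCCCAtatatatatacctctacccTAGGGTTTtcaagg
ATKRS-1 chr3:3705717-3705836 (minus strand): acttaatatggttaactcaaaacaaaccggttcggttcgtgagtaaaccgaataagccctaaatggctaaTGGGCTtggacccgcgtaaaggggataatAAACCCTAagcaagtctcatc
NSN1 chr3:2232362-2232481 (minus strand): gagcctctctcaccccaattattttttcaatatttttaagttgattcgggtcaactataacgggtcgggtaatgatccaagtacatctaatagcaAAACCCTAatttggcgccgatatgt
In these windows AT2G40205 has 3 site II elements and a telo-box 14 bases before the start, AT3G22230 has 2 site II elements and a telo-box 23 bases before it, and ATL5 has 2 site II elements and no telo-box.

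ATL5 stood at 653, 673 and 566 CPM in mock, 256, 222 and 209 CPM with AZD8055, 213, 204 and 241 CPM with KU63794 and 389, 418 and 357 CPM with TORIN1. All 9 inhibitor libraries were below the mock libraries, and the TORIN1 libraries lay between the others and mock. The log2 fold change of the mean was −1.23 (SE 0.09, edgeR adjusted p = 3.59e-07). PGY1 (AT2G27530), an L10a ribosomal protein whose mutants have altered leaf shape, fell by 1.28 on the log2 scale (SE 0.08). RPSAb (AT3G04770), a protein of the small subunit, went from 11, 11.2 and 9.91 CPM in mock to 1.46 to 6.13 CPM over the inhibitor libraries, a change of −1.45 (SE 0.27). AT3G22230 was called in the mean without any single call. It stood at 13.2, 13 and 12.6 CPM in mock and at 5.14 to 6.83 CPM in 8 inhibitor libraries, but at 18.2 CPM in replicate 1 of AZD8055. Its log2 fold change was −0.85 (SE 0.29, edgeR adjusted p = 0.0419), and −1.12 with an adjusted p of 6.06e-06 without that library. Leaving out a mock library ended its call, with adjusted p of 0.12, 0.115 and 0.0971 for replicates 1, 2 and 3. The same held for AT2G40205, whose log2 fold change was −0.75 (SE 0.26, edgeR adjusted p = 0.0467) and whose adjusted p became 0.212, 0.0645 and 0.105. With the replicate number as a block it was 0.0753.

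Genes that make ribosomes fell as well. Of 59 tested ribosome biogenesis genes 51 were lower and 0 higher, with a median of −0.948. FIB2 (AT4G25630), a fibrillarin that methylates ribosomal RNA, fell from 110, 84.3 and 91.9 CPM in mock to 16 to 57 CPM over the 9 inhibitor libraries, a log2 change of −1.43 (SE 0.18). NSN1 fell by 1.27 (SE 0.12), YAO (AT4G05410), a nucleolar protein of ribosomal RNA processing, fell by 1.26 (SE 0.17), and NUC-L1 (AT1G48920), the nucleolin of growing tissue, fell by 1.11 (SE 0.10). Of 14 tested subunits of RNA polymerases I and III, 12 were lower, among them the 2 largest subunits of RNA polymerase I, NRPA1 (AT3G57660) at −1.07 (SE 0.16) and NRPA2 (AT1G29940) at −1.03 (SE 0.10). No inhibitor library of NRPA2 exceeded 48.2 CPM, and no mock library was under 68.9 CPM.

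Genes that act in translation itself and in the supply of its building blocks were lower too. Of 31 tested translation initiation genes 22 were lower, with a median of −0.575. PAB4 (AT2G23350), a poly(A)-binding protein, fell by 1.28 on the log2 scale (SE 0.10), and EIF3E (AT3G57290), a subunit of initiation factor 3, by 0.94 (SE 0.06). Of 34 tested aminoacyl-tRNA synthetases 20 were lower and 1 higher, at a median of −0.266, and ATKRS-1 fell from 240 to 261 CPM in mock to 141 to 183 CPM over the inhibitor libraries (−0.60, SE 0.06). Of 22 tested nucleotide synthesis genes 17 were lower. PUR5 (AT3G55010), an enzyme of the purine ring, stood at 62.6, 67.7 and 69.6 CPM in mock and at 18.1 to 37.3 CPM with the inhibitors, with a log2 fold change of −1.32 (SE 0.11, edgeR adjusted p = 8.02e-07).

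Most transcripts for protein import and folding in mitochondria were lower too. Of 26 tested genes of mitochondrial import and chaperonins 21 were lower and 0 higher, at a median of −0.677. The small carriers of the space between the mitochondrial membranes fell, with TIM13 (AT1G61570) at −1.25 (SE 0.13), TIM9 (AT3G46560) at −1.10 (SE 0.20) and TIM8 (AT5G50810) at −1.05 (SE 0.17). PHB3 (AT5G40770), a prohibitin of the inner membrane, fell by 0.87 (SE 0.15). Of single nuclear genes for plastid proteins, CR88 (AT2G04030), the Hsp90 chaperone of plastids, fell by 1.12 (SE 0.10). CP29 (AT3G53460), an RNA-binding protein of chloroplasts, fell from 675 to 886 CPM in mock to 174 to 394 CPM with the inhibitors (−1.55, SE 0.11). Of 18 tested plastid ribosomal proteins 9 were lower, at a median of −0.274.

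Across all genes with an annotated start, the telo-box was found between 250 bases before and 50 bases after the start, on either strand, in 5.53% of 17777 genes tested. It was found in 13.0% of the lower genes, in 25.7% of those at least 2-fold lower and in 2.06% of the higher genes. Without the cytosolic ribosomal proteins the share among lower genes was 11.0%. It was present for 49.1% of the tested ribosomal protein genes and 42.4% of the ribosome biogenesis genes. For mitochondrial import genes the share was 30.8%, for translation initiation genes 19.4% and for nucleotide synthesis genes 9.09%. Of the aminoacyl-tRNA synthetases, ATKRS-1 among them, 2 of 34 had a telo-box (5.88%), near the share of all genes. Site II elements were more common in general, in 26.4% of all tested genes, 36.8% of lower and 20.1% of higher genes, and in 77.1% of ribosomal protein genes and 69.2% of mitochondrial import genes. Among lower genes called with each of the 3 inhibitors 18.6% had a telo-box, and among those called with fewer than 3 the share was 9.03%. These shares describe letters in a window and are not tests. The G-box (CACGTG), W-box (TTGACC or TTGACT), P1BS (GNATATNC), evening element (AAATATCT), GCC box (GCCGCC), I-box (GATAAG), E2F site (TTTCCCGC) and TATCCA element were searched in the same windows, on both strands. The evening element was found in 6.02% of all, 8.17% of higher and 5.36% of lower genes, the GCC box in 2.57%, 1.91% and 3.43%, and the E2F site in 0.855%, 0.589% and 1.08%.

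**Figure D3:**
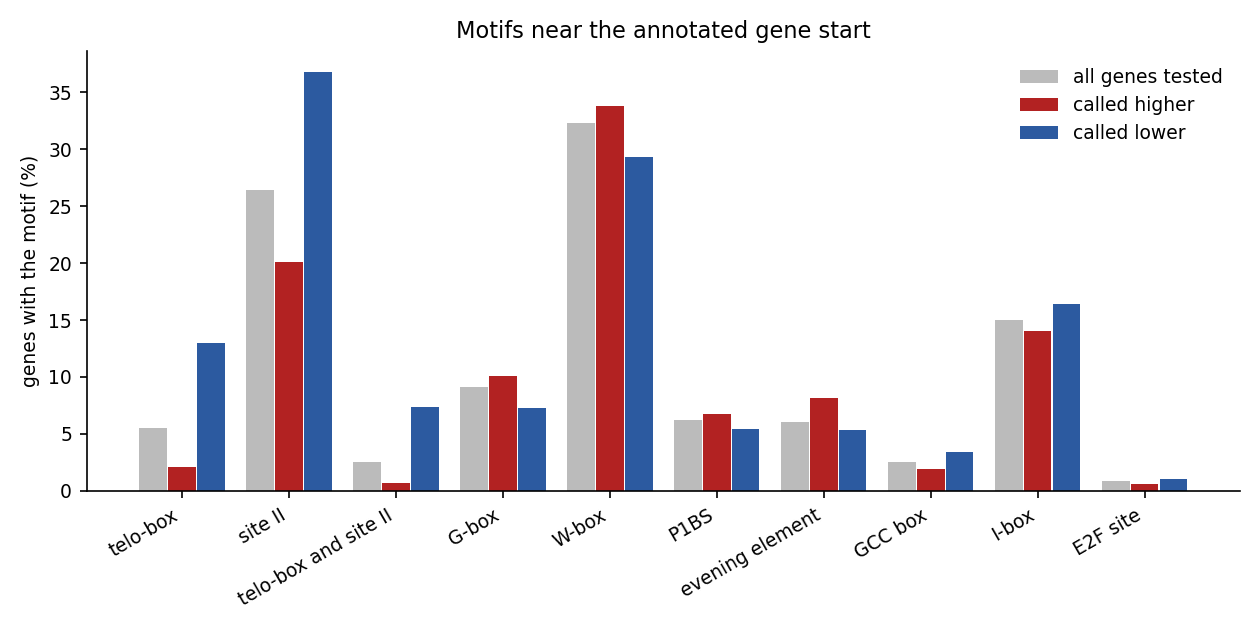
Bars give the percentage of genes with each motif between 250 bases before and 50 bases after the annotated start, for all genes tested (grey), higher genes (red) and lower genes (blue). The telo-box stands at 5.53%, 2.06% and 13.0% in that order, and the pair of telo-box and site II at 2.5%, 0.662% and 7.36%.

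Growth and wall genes differed by family. Of 21 tested expansins, proteins that loosen the cell wall, 8 were lower (38.1%, against 17.6% of all genes) and 3 higher (14.3%, against 15.2%). EXPA1 (AT1G69530) stood at 86.9, 93.2 and 87.5 CPM in mock, at 20.8 to 23.2 CPM with AZD8055, 23.1 to 27.5 CPM with KU63794 and 24.6 to 36.9 CPM with TORIN1, a log2 fold change of −1.77 (SE 0.10, edgeR adjusted p = 5.37e-08). EXP3 (AT2G37640) fell by 1.09 (SE 0.12) and EXPA11 (AT1G20190) by 0.94 (SE 0.12). The expansin-like genes EXLA1 (AT3G45970) and EXLA2 (AT4G38400) rose by 2.57 (SE 0.35) and 1.53 (SE 0.23). EXLA1 went from 6.57 to 9.7 CPM in mock to 29.8 to 81.4 CPM with the inhibitors. Of 25 tested xyloglucan endotransglucosylases, which cut and rejoin wall polymers, 8 were higher and 3 lower, with XTH18 (AT4G30280) at 3.02 (SE 0.47) and XTH8 (AT1G11545) at −0.57 (SE 0.10). BXL1 (AT5G49360), a xylosidase of the wall, fell from 305, 441 and 305 CPM to 41.6 to 191 CPM (−2.06, SE 0.26), and BGAL1 (AT3G13750), a galactosidase, from 679 to 937 CPM to 237 to 348 CPM (−1.52, SE 0.10). GASA6 (AT1G74670), a gibberellin-regulated gene, fell by 1.69 (SE 0.12).

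About as many DNA replication genes were lower as were not called, and most genes of mitosis were not called. Of 44 tested replication genes 23 were lower and 0 higher, at a median of −0.386, and 6 of the 23 were called with each inhibitor. PSF2 (AT3G12530) and PSF1 (AT1G80190), subunits of the GINS complex at the replication fork, fell by 0.88 (SE 0.16) and 0.87 (SE 0.16), and CDC6 (AT2G29680), which loads the replicative helicase, by 0.72 (SE 0.14). Of 62 tested genes of mitosis and cytokinesis 4 were higher (6.45%, against 15.2% of all genes) and 2 lower (3.23%, against 17.6%). The D-type cyclin CYCD2;1 (AT2G22490) stood at 16, 16.5 and 16.2 CPM in mock and at 7.11 to 11.9 CPM in the inhibitor libraries (−0.65, SE 0.12). ICK1 (AT2G23430), an inhibitor of cyclin-dependent kinases, went from 18.3 to 21.2 CPM to 24.8 to 33.5 CPM (0.62, SE 0.10).

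Most genes of starch metabolism rose, with 31 of 41 tested genes higher, 1 lower and a median log2 fold change of 0.6. In 26 of them all inhibitor libraries lay above mock. Genes of synthesis and of breakdown both rose. GBSS1 (AT1G32900), the starch synthase that makes amylose, stood at 108, 106 and 86 CPM in mock, 561, 488 and 571 CPM with AZD8055, 327, 257 and 464 CPM with KU63794 and 312, 417 and 485 CPM with TORIN1, a log2 fold change of 2.09 (SE 0.19, edgeR adjusted p = 3.7e-06). APL3 (AT4G39210), a large subunit of ADP-glucose pyrophosphorylase, the enzyme that commits carbon to starch, went from 20.4 to 26.4 CPM to 65.4 to 184 CPM (2.45, SE 0.22). SEX1 (AT1G10760), the glucan water dikinase that starts starch breakdown, went from 544, 620 and 683 CPM to 855 to 1232 CPM (0.69, SE 0.12). No inhibitor library of the 3 genes overlapped with mock.

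GPT2 (AT1G61800), which carries glucose 6-phosphate into plastids, had the largest log2 fold change of the named genes. It stood at 0.821, 2.19 and 0 CPM in mock and at 13.6 to 56.6 CPM over the 9 inhibitor libraries, a log2 fold change of 4.98 (SE 0.51, edgeR adjusted p = 5.91e-05). DFR (AT5G42800), the reductase of anthocyanin synthesis, went from 28.5 to 49.6 CPM to 86.9 to 437 CPM (2.75, SE 0.34), with the lowest inhibitor library again replicate 2 of KU63794. The 120 bases before both starts are shown because GPT2 has an evening element and DFR a G-box there, marked in capitals. In the wider window 22.0% and 26.8% of the tested starch genes hold these motifs, against 6.02% and 9.12% of all genes. Among all higher genes the shares were 8.17% and 10.1%. DFR is not a starch gene, and no share was taken for the flavonoid genes.
GPT2 chr1:22824294-22824413 (plus strand): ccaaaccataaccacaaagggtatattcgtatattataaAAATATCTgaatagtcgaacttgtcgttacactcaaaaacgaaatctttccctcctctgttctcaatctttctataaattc
DFR chr5:17166033-17166152 (minus strand): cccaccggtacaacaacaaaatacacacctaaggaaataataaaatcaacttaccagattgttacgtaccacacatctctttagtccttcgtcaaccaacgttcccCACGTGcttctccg

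Of 42 tested sugar transporters 10 were higher (23.8%, against 15.2% of all genes) and 7 lower (16.7%, against 17.6%). Named members had the sucrose carrier SUC1 (AT1G71880) at 0.61 (SE 0.10) and the hexose carrier MSS1 (AT5G26340) at −1.19 (SE 0.16). ERDL6 (AT1G75220), which exports glucose from the vacuole, fell from 228, 286 and 245 CPM to 88.1 to 180 CPM (−0.95, SE 0.13). AT5G18840, an unnamed member of the same transporter superfamily, stood at 5.2, 5.04 and 5.87 CPM in mock and at 18.9 to 45.3 CPM with the inhibitors, a log2 fold change of 2.65 (SE 0.16).

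Many genes for pigments, glucosinolates and defence hormones rose. Of 23 tested genes of flavonoid and anthocyanin synthesis 15 were higher and 0 lower, at a median of 1.252. TT8 (AT4G09820), a bHLH regulator of the pathway, went from 1.04 to 2.66 CPM to 5.26 to 20.3 CPM (2.62, SE 0.33), and GSTF12 (AT5G17220), needed to bring anthocyanins into the vacuole, from 9.26 to 14.2 CPM to 20.7 to 74.4 CPM (2.21, SE 0.26). Of 33 tested glucosinolate genes 18 were higher and 1 lower, with BCAT4 (AT3G19710) and IMD1 (AT5G14200) of methionine chain elongation at 1.29 (SE 0.29) and 1.15 (SE 0.19). Of 33 tested jasmonate genes 17 were higher and 0 lower, but only 6 of the 17 with each inhibitor alone. OPCL1 (AT1G20510), which activates jasmonate precursors, went from 3.99 to 4.82 CPM to 8.85 to 10.8 CPM (1.14, SE 0.12). Of 32 tested defence and salicylic acid genes 13 were higher and 1 lower, with RBOHD (AT5G47910), the oxidase of the defence burst, at 0.76 (SE 0.12) and EDS1 (AT3G48090), a hub of immune signalling, at 0.71 (SE 0.18). Of 53 tested genes of the abscisic acid and dehydration response 17 were higher (32.1%, against 15.2% of all genes) and 2 lower (3.77%, against 17.6%). The dehydrin ERD10 (AT1G20450) rose by 0.90 (SE 0.10) and LTI78 (AT5G52310) by 1.55 (SE 0.16), while the abscisic acid receptor RCAR3 (AT5G53160) fell by 0.82 (SE 0.15).

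**Figure D4:**
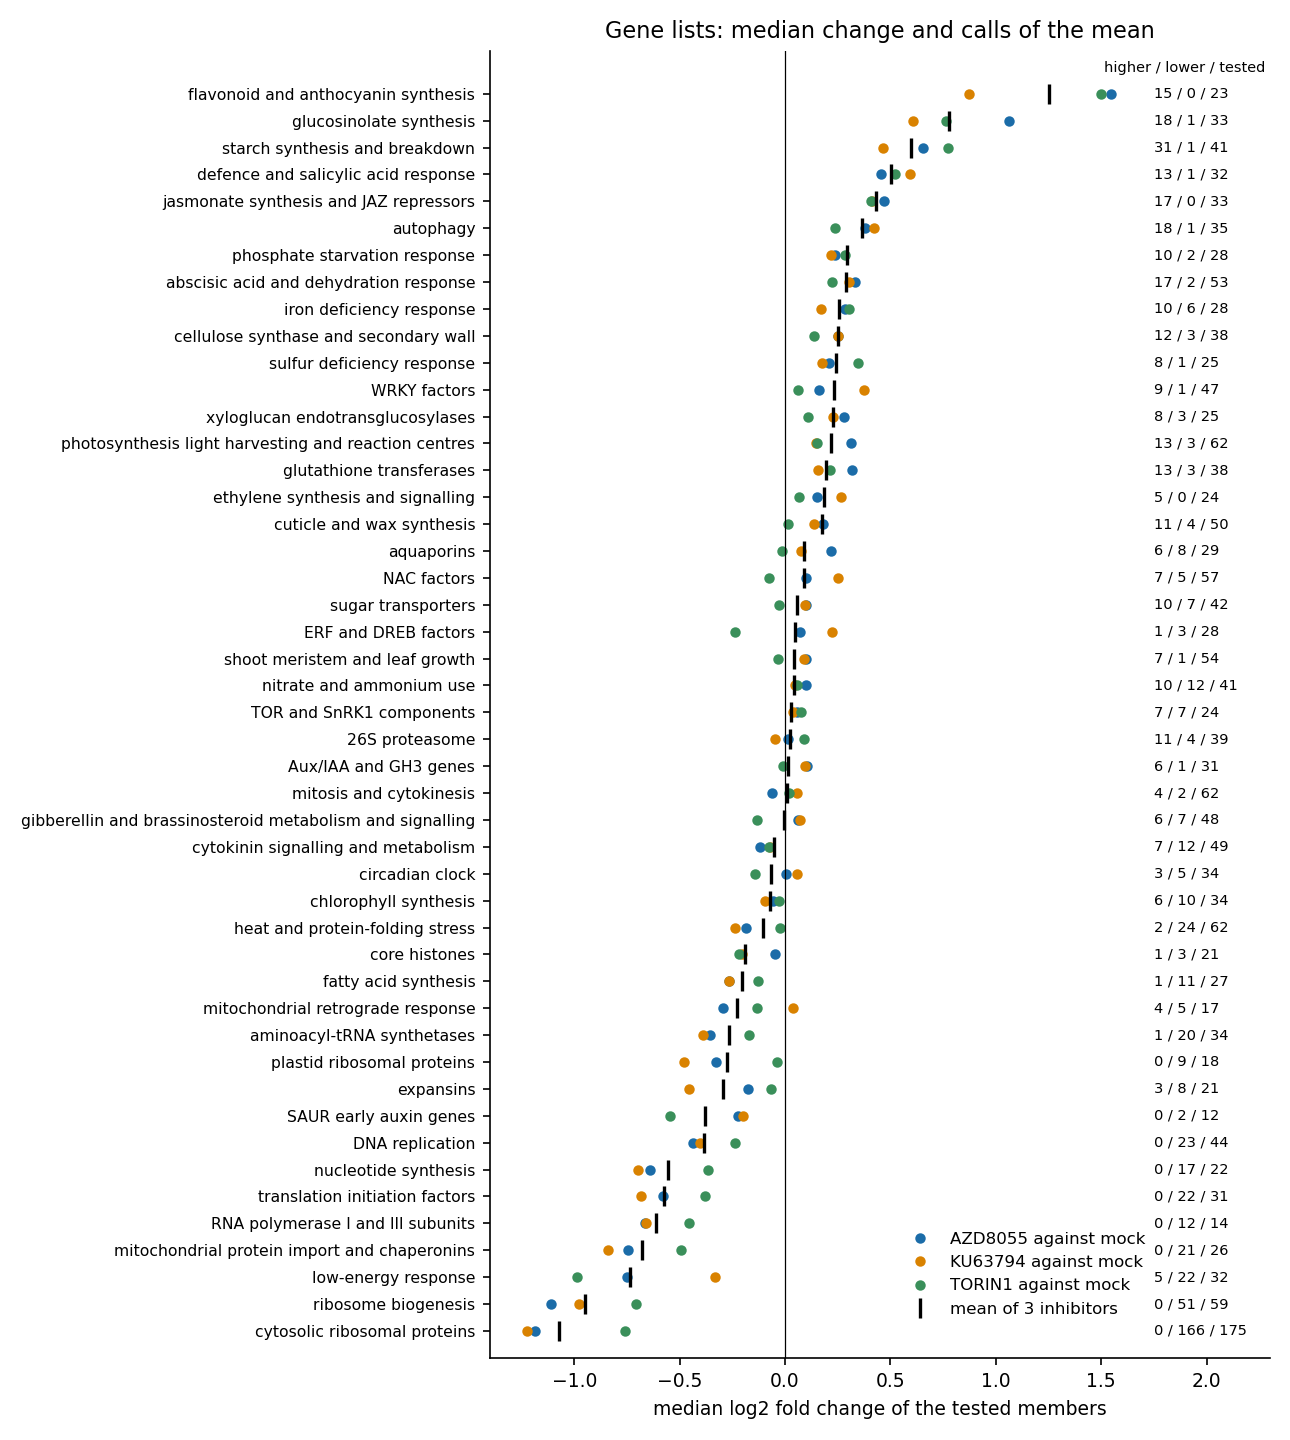
Rows are gene lists ordered by the median log2 fold change of their tested members. Coloured dots give the median for each inhibitor against mock, the black bar the median for the mean of 3 inhibitors, and the numbers at the right the higher, lower and tested members. Cytosolic ribosomal proteins lie lowest at −1.072 and flavonoid and anthocyanin synthesis highest at 1.252, and in both the single inhibitors differ in size but not in sign.

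Some of the steepest changes were in genes of detoxification and defence peptides. Of 38 tested glutathione transferases 13 were higher (34.2%, against 15.2% of all genes) and 3 lower (7.89%, against 17.6%). GSTF6 (AT1G02930), a stress-induced member, stood at 21.5, 16.4 and 14.7 CPM in mock, 398, 163 and 162 CPM with AZD8055, 93.3, 66.6 and 117 CPM with KU63794 and 193, 169 and 246 CPM with TORIN1 (log2 fold change 3.22, SE 0.38, edgeR adjusted p = 0.000174). AT2G04050, an efflux carrier of the MATE family, went the other way, from 22.2, 22.6 and 14.5 CPM to 0.415 to 1.36 CPM (−4.59, SE 0.21). AT3G59930, a defensin-like peptide, fell from 15.9, 18.3 and 11.2 CPM to 0.694 to 2.63 CPM (−3.09, SE 0.21). AT1G80130, a tetratricopeptide repeat protein with no symbol, rose by 3.53 (SE 0.19), from 1.43 to 2.26 CPM to 14.1 to 34.2 CPM.

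Nutrient genes moved in a mixed pattern. NRT1.7 (AT1G69870), which loads nitrate into the phloem of old leaves, stood at 31.1, 37.2 and 42.9 CPM in mock and at 83.3 to 143 CPM with the inhibitors (1.59, SE 0.15). GSR 1 (AT5G37600), a cytosolic glutamine synthetase, went from 99.3 to 129 CPM to 210 to 255 CPM, with nearly equal log2 fold changes of 0.95, 0.98 and 0.93 for AZD8055, KU63794 and TORIN1. NIA1 (AT1G77760), a nitrate reductase, fell from 319 to 433 CPM to 105 to 243 CPM (−1.25, SE 0.18). Counted as a list, 10 of 41 tested nitrate and ammonium genes were higher (24.4%, against 15.2% of all genes) and 12 lower (29.3%, against 17.6%). Of 28 tested phosphate starvation genes 10 were higher (35.7%) and 2 lower (7.14%). Among the higher ones were MGD2 (AT5G20410) at 1.44 (SE 0.15), PAP10 (AT2G16430) at 0.66 (SE 0.08) and SQD2 (AT5G01220) at 0.62 (SE 0.11). In that order, they make galactolipid, release phosphate and make sulfolipid. The 3 yellow stripe-like transporters of metal chelates, YSL1 (AT4G24120), YSL2 (AT5G24380) and YSL3 (AT5G53550), rose by 0.95 (SE 0.16), 1.08 (SE 0.10) and 0.49 (SE 0.09), and the iron store FER4 (AT2G40300) fell by 0.60 (SE 0.08).

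Autophagy genes were higher in part. Of 35 tested autophagy genes 18 were higher and 1 lower, at a median of 0.365. AtATG18a (AT3G62770), which binds membrane lipids at the forming autophagosome, went from 15.9 to 19.3 CPM to 22.2 to 34.2 CPM (0.68, SE 0.10). Of 39 tested proteasome genes 11 were higher (28.2%, against 15.2% of all genes) and 4 lower (10.3%, against 17.6%). Only 1 of the 11 was called with every inhibitor alone. The alternative respiratory enzymes NDA2 (AT2G29990), NDA1 (AT1G07180) and AOX1A (AT3G22370) rose by 0.76 (SE 0.14), 0.51 (SE 0.12) and 0.44 (SE 0.09). Their list, however, the mitochondrial retrograde response, had 4 higher (23.5%) and 5 lower (29.4%) of 17 tested genes, at a median of −0.228. In contrast, 22 of 32 tested genes of a low-energy list were lower and 5 higher. Among the lower ones, BT1 (AT5G63160), a scaffold protein that nitrate and sugar regulate, fell from 125, 194 and 155 CPM to 27.7 to 81 CPM (−1.93, SE 0.25). Among the higher ones was SEX1.

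Among genes named for their gain in CPM were several of photorespiration and the plastid. GLDP1 (AT4G33010) and GLDP2 (AT2G26080), the P-proteins of glycine decarboxylase, went from 3124, 3174 and 3778 CPM to 4814 to 6797 CPM and from 1306, 1458 and 1423 CPM to 2000 to 3029 CPM. Their log2 fold changes were 0.68 (SE 0.12) and 0.80 (SE 0.12), and no library overlapped with mock. OEP16-1 (AT2G28900), a pore of the outer plastid envelope, stood at 351, 344 and 406 CPM in mock and at 645 to 1733 CPM with the inhibitors (1.52, SE 0.17). RBCS2B (AT5G38420), a small subunit of Rubisco that shares much of its sequence with its sister genes, had a log2 fold change of 0.52 (SE 0.16, edgeR adjusted p = 0.0199). Its call was lost when any mock library was left out, with adjusted p between 0.0611 and 0.0916. Of its sister genes, RBCS1B and RBCS1A are named after their values were seen. RBCS1B was lower at −0.52 (SE 0.15, edgeR adjusted p = 0.0156), with inhibitor and mock libraries that overlapped, and RBCS1A was not called, at −0.0035.

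Photosynthesis genes were rarely lower. Of 62 tested genes of light harvesting and the reaction centres 13 were higher (21.0%, against 15.2% of all genes) and 3 lower (4.84%, against 17.6%). The other 46 were not called. Of the 13, 4 were called with every inhibitor alone, and each of the 3 lower genes was called with only 1 inhibitor alone. LHCB2.3 (AT3G27690) and LHCB4.3 (AT2G40100), antenna proteins of photosystem II, rose by 0.98 (SE 0.19) and 0.91 (SE 0.16), and PSBQ-2 (AT4G05180), of its oxygen-evolving complex, by 0.60 (SE 0.10). Of the chlorophyll genes, 6 of 34 tested were higher (17.6%, against 15.2% of all genes) and 10 lower (29.4%, against 17.6%). The other 18 were not called, and the median of the list was −0.07. Among those named, HEMA2 (AT1G09940), HEME2 (AT2G40490) and HEMC (AT5G08280), of synthesis, fell by 0.76 (SE 0.15), 0.67 (SE 0.10) and 0.65 (SE 0.09), while NYE1 (AT4G22920), PPH (AT5G13800) and ACD1 (AT3G44880), of breakdown, rose by 0.64 (SE 0.13), 0.58 (SE 0.13) and 0.58 (SE 0.09). Of 27 tested fatty acid synthesis genes 11 were lower and 1 higher, with ACP4 (AT4G25050), the acyl carrier protein of leaves, falling from 778, 802 and 804 CPM to 391 to 571 CPM (−0.80, SE 0.09).

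The other lists are given by their counts and a few members, and many of these counts lie near or below the shares over all genes, 15.2% higher and 17.6% lower. Of 62 tested genes of heat and protein-folding stress 24 were lower and 2 higher, and HSP70 (AT3G12580) was higher at 0.91 (SE 0.15) while HSP60 (AT3G23990), a mitochondrial chaperonin, fell by 0.74 (SE 0.09). Of 49 tested cytokinin genes 7 were higher and 12 lower. The response regulator RR5 (AT3G48100), which damps the signal, fell by 0.86 (SE 0.14), and RR10 (AT4G31920), which carries it to target genes, rose by 0.67 (SE 0.13). Of 24 tested components of TOR and SnRK1 signalling 7 were higher and 7 lower, with RAPTOR2 (AT5G01770) at 0.36 (SE 0.08) and the ribosomal protein RPS6 (AT4G31700), a target at the end of the TOR cascade, at −1.29 (SE 0.12). Of 29 tested aquaporins 6 were higher and 8 lower, and of 50 tested cuticle genes 11 were higher and 4 lower. Of 38 tested cellulose and secondary wall genes 12 were higher and 3 lower, with COB (AT5G60920), needed for oriented cellulose, at 0.62 (SE 0.12). Of 47 tested WRKY factors 9 were higher (19.1%) and 1 lower, of 57 NAC factors 7 (12.3%) and 5 (8.77%), and of 28 ERF and DREB factors 1 (3.57%) and 3 (10.7%). Of 34 tested clock genes 3 were higher and 5 lower, with RVE1 (AT5G17300), a morning factor, falling by 1.16 (SE 0.19). Of 31 tested Aux/IAA and GH3 genes 6 were higher and 1 lower, and of 12 tested SAUR genes 2 were lower. Of 48 tested gibberellin and brassinosteroid genes 6 were higher and 7 lower, of 24 ethylene genes 5 and 0, of 25 sulfur deficiency genes 8 and 1, and of 28 iron deficiency genes 10 and 6. Of 54 tested shoot meristem and leaf growth genes 7 were higher and 1 lower, of 21 core histones 1 and 3, and of 23 shoot markers 4 and 4.

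**Figure D5:**
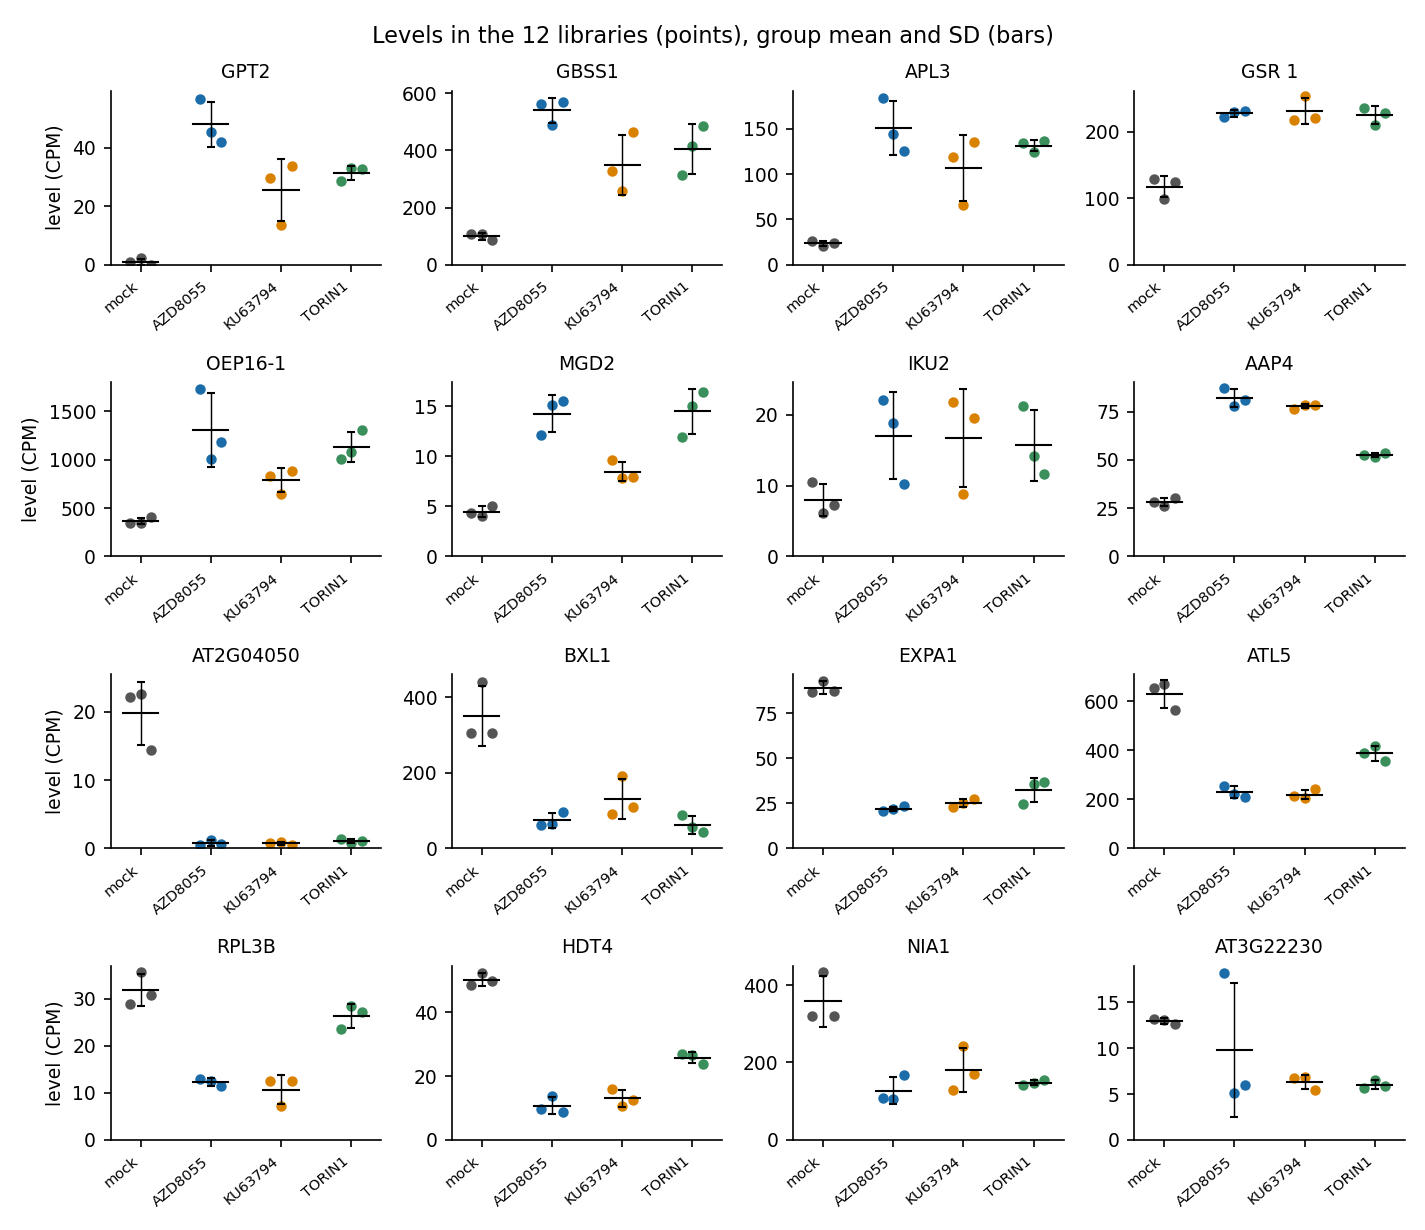
Points are the levels (CPM, linear axes from 0) of 16 named genes in the 12 libraries, with bars for the mean and SD of each group of 3. The TORIN1 points lie between mock and the other inhibitors for ATL5, RPL3B and HDT4, and for AT3G22230 a single AZD8055 point at 18.2 CPM lies above mock.

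The 242 genes called in the mean but with no inhibitor alone had median log2 fold changes of 0.34 for the 124 higher and −0.427 for the 118 lower. Single changes reached an absolute log2 fold change of 6.975 among the higher and 5.889 among the lower genes. Of the 124 and 118 genes, 45 and 43 had libraries that did not overlap with mock. Among all called genes this held for 1869 of the 2725 higher and 2198 of the 3158 lower. Over all genes tested, it held for 11.0% (above mock) and 13.0% (below mock). IKU2 (AT3G19700), a receptor-like kinase known for its role in seed size, stood at 10.5, 6.18 and 7.3 CPM in mock, 22, 18.9 and 10.2 CPM with AZD8055, 21.8, 8.8 and 19.6 CPM with KU63794 and 21.3, 14.2 and 11.7 CPM with TORIN1. Its groups overlapped, and its log2 fold changes of 1.06, 1.04 and 0.94 gave a mean of 1.02 (SE 0.35, edgeR adjusted p = 0.046). TRM10 (AT5G47680), a tRNA methyltransferase, had changes of −0.61, −0.68 and −0.72 and a mean of −0.67 (SE 0.19, edgeR adjusted p = 0.0143). UGT76E11 (AT3G46670), a glycosyltransferase, had 0.49, 0.40 and 0.56 and a mean of 0.49 (SE 0.16, edgeR adjusted p = 0.0332). These calls lie close to the threshold. Without mock replicate 1 the adjusted p was 0.0551 for IKU2, 0.0852 for TRM10 and 0.191 for UGT76E11, and without mock replicate 2 it was 0.167, 0.0695 and 0.144. Without mock replicate 3 IKU2 was at 0.137, while TRM10 and UGT76E11 kept the call at 0.0218 and 0.0159. The whole count fell from 242 to 129, 148 and 166 without mock replicates 1, 2 and 3.

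The 3 inhibitors differed from each other in 326 genes (1.82% of those tested) by the edgeR test over the inhibitor groups. Of these, 244 were lower in the mean, 25 higher and 57 not called. TORIN1 had the smallest change in 222 of the 244, and 47 of the 175 ribosomal protein genes were among the 326. HDT4 (AT2G27840), a plant-specific histone deacetylase-like protein, stood at 48.5, 52.3 and 49.7 CPM in mock, 9.71, 13.6 and 8.86 CPM with AZD8055, 15.9, 10.7 and 12.5 CPM with KU63794 and 26.9, 26.6 and 23.7 CPM with TORIN1. Against mock this is a log2 change of −2.23, −1.94 and −0.96 (edgeR adjusted p of the difference = 0.0061). AAP4 (AT5G63850), an amino acid permease, went from 26.3 to 30.2 CPM to 76.5 to 87.2 CPM with AZD8055 and KU63794 and to 51.5 to 53.4 CPM with TORIN1, changes of 1.55, 1.47 and 0.90 (adjusted p of the difference = 0.0061). RPL3B (AT1G61580), a ribosomal protein L3, was at 7.23 to 12.9 CPM with AZD8055 and KU63794 but at 23.5, 28.4 and 27.1 CPM with TORIN1, against 29, 35.6 and 30.8 CPM in mock. AT3G51870, a mitochondrial carrier protein, had the smallest p of these, 0.00149 after adjustment.

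The number of differing genes rests on few libraries. From 326, it became 5 without replicate 3 of TORIN1, 11 without its replicate 2, 590 without replicate 1 of AZD8055, and 103, 92 and 105 without mock replicates 1, 2 and 3. Replicates 2 and 3 of TORIN1 are also 2 of the 4 libraries with few seed storage transcripts. Leaving out those 4 leaves a single TORIN1 library, so no count of differing genes is given for that fit. Compound and dose cannot be told apart.

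A few photosynthesis genes went in opposite directions with different inhibitors. Of all genes tested, 5 were called higher with an inhibitor and lower with another, namely LHB1B1, LHB1B2, PSAG, HCD1 and AT1G63360, which are named here after their values were seen. LHB1B2, an antenna protein of photosystem II, stood at 189, 212 and 173 CPM in mock, 297, 273 and 362 CPM with AZD8055, 314, 329 and 283 CPM with KU63794 and 120, 129 and 109 CPM with TORIN1. Its AZD8055 and KU63794 libraries all lay above mock and its TORIN1 libraries all below it, with log2 fold changes of 0.70, 0.69 and −0.69 (edgeR adjusted p of the difference = 0.000251). LHB1B1, its close copy, with which reads may be shared, had 0.72, 0.54 and −0.76, and PSAG, a subunit of photosystem I, had 0.54, 0.14 and −0.58. None of the 5 was called in the mean of the 3 inhibitors.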

How the data were processed

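RNA-seq of 12 libraries, 3 each of mock, AZD8055, KU63794 and TORIN1, was used, grouped by the labels. The authors deposited whole-number read counts per gene for each library. Per the submitters' processing notes StringTie 1.3.3 and DESeq2 1.18.1 were used with the TAIR10 build. No aligner or strand setting is given in the sources used here, so reads of overlapping genes may not be told apart. The authors also deposited a table of log2 fold changes of the mean of the inhibitors against mock, which is used only for the side-by-side values under other observations. Members and gene lists were chosen with earlier results of these data known, and the 50 lists hold 2286 members.

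Genes with enough counts by filterByExpr were scaled by TMM and tested with edgeR 4.0.16 in R 4.3.3 by robust quasi-likelihood, with 1 coefficient per group and the contrast mean of 3 inhibitors minus mock. SEs were taken from the size of the change and the square root of its F value. A gene was called at a Benjamini-Hochberg adjusted p below 0.05, over all 17933 genes tested. The difference between inhibitors was tested with a joint F test. 

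Genes were named if called, at a mean of at least 5 CPM and with no overlap between inhibitor and mock libraries, as the 12 of largest fold change and the 8 of largest change in CPM per direction, and up to 3 per list and direction. To these were added 8 per direction called with no inhibitor alone, for which libraries could overlap, and the 6 with the smallest p for the difference between inhibitors. Genes without a symbol were named only by fold change, as called with no inhibitor alone, or by the difference. Gene names and starts are from RefSeq TAIR10.1, whose table held 32835 of the 33602 IDs. Other scalings, filters, tools (DESeq2 1.42.0, limma voom 3.58.1), a replicate block and left-out libraries were tried.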

Additional observations from a re-analysis of the deposited data

Results flagged for a closer look

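Each gene here was singled out because its change against mock differed between the 3 inhibitors, by the edgeR F test over the inhibitor groups with Benjamini-Hochberg adjustment. The adjusted p was 0.00149 for AT3G51870, with log2 fold changes of −1.93, −1.76 and −0.84 for AZD8055, KU63794 and TORIN1. It was 0.0061 for RPL3B, HDT4, ATL5 and AAP4, and 0.00811 for PGY1. In these 6 genes TORIN1 had the smallest change, and all 3 TORIN1 libraries lay between those of the other inhibitors and mock.

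The same order, with the smallest change for TORIN1, was found for CR88 (adjusted p = 0.024), PAB4 (0.031), RPS6 (0.0327), NUC-L1 (0.0367), CP29 (0.0388), PUR5 (0.0458), HSP60 (0.0466) and TIM13 (0.0498). In AT5G18840 (0.031), MGD2 (0.0332) and AT1G80130 (0.0353) KU63794 had the smallest change. The changes of MGD2 were 1.68, 0.94 and 1.71 for AZD8055, KU63794 and TORIN1. Changes of opposite sign were found for LHB1B2 (0.000251), LHB1B1 (0.0103), AT1G63360 (0.0194), PSAG (0.0222) and HCD1 (0.0194). The count of such genes over the whole table depends on single libraries, as given in the report, and the role of dose was not tested.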

How the results depend on the processing

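Over 27 alternatives, no gene called in the main fit was called in the opposite direction, and 68.9% to 98.9% of the 5883 calls were kept. With 1 library left out the counts ranged from 1829 to 2943 higher and 2299 to 3361 lower genes, from 334 to 403 and 531 to 684 at 2-fold or more, from 129 to 320 called with no inhibitor alone, and from 5 to 590 differing between inhibitors. Requiring at least 10 counts in every library left 249 genes at least 2-fold higher. The count called with no inhibitor alone was 386 without the 4 libraries with few seed storage transcripts and 369 without replicate 1 of AZD8055 and replicate 2 of KU63794, both chosen after seeing the data. The count differing between inhibitors was 53 with library totals only, 1007 with DESeq2 and 176 with limma voom. It was 1017 without all AZD8055 libraries and 1 without all TORIN1 libraries. Without replicate 1 of AZD8055 and replicate 2 of KU63794 it was 542. Without the 4 libraries with few seed storage transcripts a single TORIN1 library is left, so no count of differing genes is given there. Leaving out a group leaves a test of 2 inhibitors. For the other settings the cause was not tested. Treating the 9 libraries as 1 group gave 2466 higher and 2700 lower genes, and gives no count for single inhibitors.

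The labels do not say what replicate numbers share, and the deviations of same-numbered libraries were not correlated above 0.1 in every pair: 8 of 18 were (range −0.308 to 0.257). All pairs of mock with KU63794 (0.141 to 0.176) and with TORIN1 (0.111 to 0.163) were above 0.1, and those with AZD8055 (−0.066 to 0.091) were not. The numbers were therefore not used to pair the 4 groups. With the number as a replicate block, 2715 genes were higher, 3130 lower, 392 and 618 at least 2-fold, 211 called with no inhibitor alone and 222 different between inhibitors. Of the 224 genes picked by the naming rule, 39 lost the call under at least 1 alternative and 0 reversed. Of 1349 list medians 66 moved by more than 1 SD and 42 changed sign. With 3 mock libraries shared by every comparison, the number of mock libraries limits the precision.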

Other observations

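The authors' deposited table held 4398 genes, 2066 higher and 2332 lower, of which 2026 and 2304 were called here in the same direction, 0 in the other and 68 not at all. A further 1553 genes were called here and are not in it. The rule by which genes entered that table was not applied here and may differ from the call used here. The 1553 genes are therefore no measure of a disagreement. The log2 fold changes in the authors' deposited table were smaller at low levels, with a median ratio to those here of 0.439 below 1 CPM (16 genes), 0.582 at 1 to 5 CPM (315 genes) and 0.897 at 5 CPM or more (3999 genes).

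Some genes were at 0 counts in part of the libraries and well above it in others. They were looked for after the data were seen. AT1G24996 had 0 counts in 9 libraries and 133, 166 and 127 CPM in replicate 1 of AZD8055, replicate 1 of KU63794 and replicate 2 of TORIN1. NSP4, a nitrile-specifier-like gene of glucosinolate breakdown, was at 40.9 CPM in mock replicate 1 and at 31.0 and 30.4 CPM in replicates 1 and 2 of KU63794, and at 0 in the other 9 libraries. Neither was called in the mean (edgeR adjusted p = 0.304 and 0.258).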
